A study of Mus musculus with 27 samples.

Results

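The enzymes that modify and crosslink collagen were followed through TGF-β treatment in mouse mammary epithelial cells. The set held 10 genes chosen by name, of 23295 genes in the expression table of the parental cells: the prolyl 4-hydroxylase subunits P4ha1, P4ha2 and P4ha3, the lysyl hydroxylases Plod1 and Plod2, the collagen chaperone Serpinh1, and the lysyl oxidases Lox, Loxl1, Loxl2 and Loxl3. All 10 were present in the expression tables, and all 10 were placed on the mouse genome build mm9. The cells were NMuMG, an established line of normal mouse mammary epithelium grown with serum and insulin, in which TGF-β induces an epithelial-to-mesenchymal transition (EMT). RNA-seq was made from parental cells, from cells carrying a lentiviral irrelevant shRNA (control) and from cells carrying a lentiviral shRNA against lamin B1 (KD). Both shRNA lines were selected with puromycin, and the knockdown was partial by design. For each of these 3 kinds of cells there were 2 libraries before TGF-β was added, 2 at 8 h and 2 at 24 h of it. Lamin B1 ChIP-seq and ATAC-seq of parental cells added 1 peak list each per time point, so their peaks carry no replicate error. The methods call the 2 libraries of a group biological replicates and do not describe how the cultures were separated.

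Procollagen chains are modified in the endoplasmic reticulum before they leave the cell. Prolyl 4-hydroxylases give the triple helix its thermal stability, lysyl hydroxylases prepare the residues through which fibrils are later crosslinked, and Serpinh1 (HSP47) binds the folded helix and accompanies it. Outside the cell the copper-dependent lysyl oxidases oxidise lysine and hydroxylysine residues, and the aldehydes they form crosslink collagen and elastin. Several of these genes are known targets of TGF-β and of hypoxia-inducible factors, and stiffening of mammary stroma by lysyl oxidases is a known companion of tumour progression.

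Expression was deposited as FPKM, a level scaled by transcript length and by the mapped fragments of the library, so levels of different genes can be set side by side. No read totals accompany FPKM. Read from the steps between low values, library depth ran from 93.0% to 116.1% of the first library in the parental table and from 79.0% to 112.1% in the shRNA table, and the shallowest was replicate 2 of KD at 8 h. The 2 KD libraries at 24 h stood apart from one another, with a correlation of 0.960 against 0.971 to 0.990 in the other pairs of replicates. Lmnb1, the targeted gene, fell in KD against control at every time, with 9.01 and 9.27 FPKM against 29.2 and 36.5 FPKM in untreated cells (limma, adjusted p = 0.000573). At 24 h the KD replicates held 4.37 and 7.52 FPKM of Lmnb1 against 18.4 and 17.9 FPKM in control. In parental cells Lmnb1 itself fell by 0.95 on the log2 scale at 24 h (adjusted p = 6.38e-06). Of the 10 epithelial markers, 7 reached 1 FPKM, with summed levels of 4333 to 5252 FPKM in parental and 5781 to 7013 FPKM in shRNA libraries. None of the 6 endothelial markers reached 1 FPKM in any library. Of the fibroblast markers other than S100a4, the summed level of 9 genes was 7.87 to 8.59 FPKM in untreated parental cells and 16.8 to 17.4 FPKM at 24 h, with Col1a1, Pdgfrb, Col3a1 and Dcn above 1 FPKM. In control cells it was 0.272 to 0.410 FPKM untreated and 7.70 to 7.92 FPKM at 24 h, and Thy1 and Lum were listed at 0 in every shRNA library. S100a4 itself held nearly all of the whole list, whose summed level ran the other way, from 2241 to 2510 FPKM untreated down to 963 to 1016 FPKM at 24 h in parental cells and from 922 to 1065 FPKM down to 418 to 445 FPKM in control. Of the 5 tested fibroblast markers in parental cells at 24 h, 3 rose and 1 (S100a4) fell. The part of these markers in the results was not tested. In bulk RNA, fewer cells of a type and less RNA per cell cannot be told apart.

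The 200 bases before the transcription start are shown for the 6 genes over whose start region an ATAC peak lay at 24 h. They are given 5′ to 3′ on the strand of the gene in mm9. Capitals mark a match to ACGTG, the core of the element bound by hypoxia-inducible factors, or to CAGAC, the SMAD-binding sequence. Both strands were searched, so a match on the other strand reads CACGT or GTCTG.
P4ha1: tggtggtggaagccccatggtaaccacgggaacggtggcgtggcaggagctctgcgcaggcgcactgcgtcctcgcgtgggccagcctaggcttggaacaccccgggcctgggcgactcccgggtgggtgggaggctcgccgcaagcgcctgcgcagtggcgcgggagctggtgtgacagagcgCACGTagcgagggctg
P4ha2: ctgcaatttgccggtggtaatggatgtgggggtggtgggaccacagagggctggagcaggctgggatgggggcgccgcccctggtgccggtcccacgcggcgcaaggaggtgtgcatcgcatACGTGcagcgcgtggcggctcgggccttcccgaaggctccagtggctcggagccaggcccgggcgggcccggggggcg
Plod1: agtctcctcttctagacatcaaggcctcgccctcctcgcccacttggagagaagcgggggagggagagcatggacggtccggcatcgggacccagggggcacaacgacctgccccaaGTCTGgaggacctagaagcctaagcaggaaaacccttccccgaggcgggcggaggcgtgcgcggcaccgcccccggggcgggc
Plod2: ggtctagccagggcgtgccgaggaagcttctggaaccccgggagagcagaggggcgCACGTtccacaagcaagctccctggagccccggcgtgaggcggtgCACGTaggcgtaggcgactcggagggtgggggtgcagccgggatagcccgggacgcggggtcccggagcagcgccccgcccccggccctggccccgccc
Serpinh1: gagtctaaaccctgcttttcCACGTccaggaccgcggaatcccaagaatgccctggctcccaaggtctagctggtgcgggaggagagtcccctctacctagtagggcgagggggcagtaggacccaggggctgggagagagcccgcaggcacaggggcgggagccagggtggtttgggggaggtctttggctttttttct
Loxl3: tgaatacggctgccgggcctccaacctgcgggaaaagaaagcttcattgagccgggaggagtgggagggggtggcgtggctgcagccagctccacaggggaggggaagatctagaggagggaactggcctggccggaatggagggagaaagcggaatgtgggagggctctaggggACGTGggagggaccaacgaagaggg
The windows were chr10:58785844-58786043 (plus strand) for P4ha1, chr11:53914226-53914425 (plus) for P4ha2, chr4:147310877-147311076 (minus) for Plod1, chr9:92436861-92437060 (plus) for Plod2, chr7:106501741-106501940 (minus) for Serpinh1 and chr6:82983967-82984166 (plus) for Loxl3. For P4ha2 the window precedes an inner annotated start, 829 bp inside the gene, because the peaks lay over that start. ACGTG was found in the window before the outermost start of 4 of the 10 genes (P4ha1, Plod2, Serpinh1 and Loxl3), against 14.8% of 20991 mouse promoters of the same length. In Plod2 it occurred at 2 places, 144 and 99 bases upstream, and in P4ha1 16 bases upstream. The inner P4ha2 window also held it, 78 bases upstream. CAGAC was found before 3 of the 10 genes (Plod1, Lox and Loxl1), against 34.1% of promoters, and the AP-1 sequence TGANTCA before none of them, against 4.86%. No matches to different motifs overlapped. The 6 printed windows were rich in G and C, from 62.5% in Serpinh1 to 75.0% in Plod2, where the median promoter held 56.0%. They held 7 to 21 CpG dinucleotides, against a median of 8. A match describes letters in this window and is not a binding site, and a window without a match says nothing of the factor.

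The first question was how these enzymes moved during TGF-β treatment of parental cells. In the untreated state the chaperone Serpinh1 stood far above the rest at a mean of 85.7 FPKM. P4ha1, Plod1, P4ha2, Loxl2 and Plod2 lay between 13.6 and 10.2 FPKM, Loxl1, Lox and P4ha3 between 2.52 and 1.59 FPKM, and Loxl3 at 0.426 FPKM. The libraries of P4ha1 and Plod1 overlapped, as did those of Lox and P4ha3. At 24 h the order was Serpinh1 (173 FPKM), Plod2 (72.4), Loxl2 (40.5), Plod1 (24.7), P4ha2 (18.5), Lox (16.3), P4ha1 (14.9), P4ha3 (6.22), Loxl1 (5.42) and Loxl3 (0.679), with no overlap between neighbours. Plod2 thus moved from the sixth place to the second. Of the 9 members with at least 1 FPKM in 2 or more parental libraries, 8 rose by 8 h, where 22.4% of 11309 tested genes rose, and 8 rose by 24 h, where 33.4% did. All 9 reached 1 FPKM in the untreated libraries too. The median log2 change of the 9 members was 0.54 at 8 h (all tested genes, -0.05) and 1.01 at 24 h (all tested genes, -0.02). The 2 exceptions were Loxl2 at 8 h and P4ha1 at 24 h. From 8 to 24 h, 7 members rose further and P4ha1 fell, where 27.7% of tested genes rose and 24.0% fell.

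**Figure D1:**
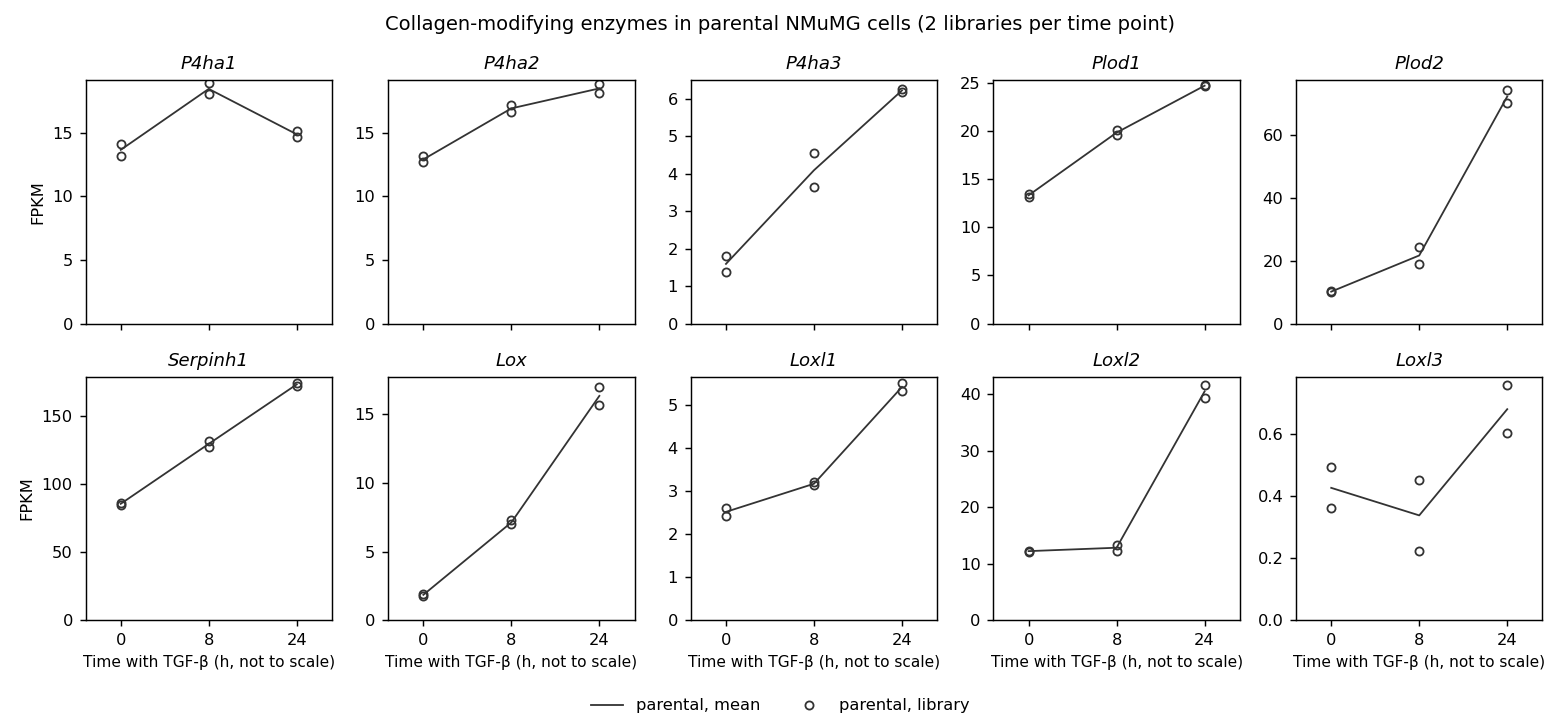
FPKM of each of the 10 genes (1 panel each, linear axis from 0) in the 6 parental libraries against time with TGF-β (0, 8 and 24 h, not to scale), with circles for libraries and a line through the means of 2. Plod2 ran from a mean of 10.2 to 72.4 FPKM and Lox from 1.86 to 16.3 FPKM, while P4ha1 was highest at 8 h.

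P4ha1 and P4ha2 are the widely expressed catalytic subunits of collagen prolyl 4-hydroxylase. P4ha1 (chr10:58786044-58836052, plus strand) measured 14.1 and 13.2 FPKM in untreated parental cells, 18.9 and 18.0 FPKM after 8 h and, by 24 h, 15.1 and 14.6 FPKM. The 8 h libraries were the highest, and those at 24 h lay just above the untreated ones. P4ha1 rose by 0.41 ± 0.05 on the log2 scale at 8 h (SE, limma on log2(FPKM + 1), adjusted p = 0.00074) and fell between 8 and 24 h by 0.29 ± 0.05 (adjusted p = 0.00335). At 24 h its change from untreated was 0.12, with a 95% interval of -0.01 to 0.24 (adjusted p = 0.0838), and it passed the threshold under both quantile and median-ratio scaling. In control cells P4ha1 held 8.56 and 8.40 FPKM untreated and 20.9 and 19.9 FPKM at 8 h, with 19.0 and 18.9 FPKM at 24 h. No treated library overlapped the untreated ones, and here the level at 24 h was 2.23 times the untreated one (log2 change 1.07 ± 0.07, adjusted p = 2.06e-06). The parental and shRNA tables were normalized separately, so levels are compared only within each.

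P4ha2 (chr11:53913597-53945167, plus strand) rose in smaller, steadier steps. It measured 13.1 and 12.6 FPKM untreated, 16.6 and 17.1 FPKM at 8 h, then 18.8 and 18.1 FPKM at 24 h in parental cells. The 3 groups did not overlap, and the change was 0.37 ± 0.05 at 8 h (adjusted p = 0.000724) and 0.49 ± 0.05 at 24 h (adjusted p = 8.07e-05). In control cells it held 11.2 and 10.4 FPKM untreated, 20.3 and 19.9 FPKM after 8 h and, by 24 h, 27.2 and 26.6 FPKM. Its log2 change there was 0.84 ± 0.05 at 8 h and 1.24 ± 0.05 at 24 h (adjusted p = 1.24e-06 and 6.48e-08).

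P4ha3, the third catalytic subunit (chr7:107434030-107468209, plus strand), was the least abundant of the 3. In parental cells it measured 1.81 and 1.37 FPKM untreated, 4.54 and 3.64 FPKM at 8 h, with 6.18 and 6.26 FPKM at 24 h. Every treated library lay above every untreated one, and the mean at 24 h was 3.91 times the untreated mean (log2 change 1.48 ± 0.11, adjusted p = 2.39e-05). Control cells held 1.01 and 0.766 FPKM untreated, 3.69 and 3.57 FPKM at 8 h, then 4.60 and 4.47 FPKM at 24 h, a 5.12-fold difference of means. The log2 change in control was 1.56 ± 0.09 at 24 h (adjusted p = 6.63e-07), which understates the change of a low gene because 1 was added before the log.

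Plod1 hydroxylates lysines within the collagen helix, and Plod2 mainly those of the telopeptides, where the most stable crosslinks form. Plod1 (chr4:147283862-147310876, minus strand) measured 13.2 and 13.5 FPKM in untreated parental cells, 20.1 and 19.6 FPKM at 8 h and 24.7 FPKM in both libraries at 24 h. The groups were well apart, and it rose by 0.54 ± 0.04 at 8 h and 0.84 ± 0.04 at 24 h (adjusted p = 9.51e-05 and 3.81e-06). In control cells it held 12.9 FPKM in both untreated libraries, 17.5 and 16.6 FPKM after 8 h and, by 24 h, 24.4 and 23.7 FPKM. Its 24 h change there was 0.85 ± 0.05 (adjusted p = 4.73e-07).

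Plod2 (chr9:92437061-92503266, plus strand) was among the most responsive members. It measured 9.91 and 10.4 FPKM in untreated parental cells, 24.5 and 18.9 FPKM at 8 h, with 74.5 and 70.3 FPKM at 24 h. The libraries separated fully at each step, and most of the increase came after 8 h. Plod2 rose by 1.01 ± 0.11 at 8 h (adjusted p = 0.000331) and by 2.72 ± 0.11 at 24 h (adjusted p = 1.76e-06), a 7.12-fold difference of means. In control cells it held 7.33 and 8.54 FPKM untreated, 33.8 and 30.7 FPKM at 8 h, then 91.5 and 93.5 FPKM at 24 h. That was an 11.7-fold difference of means at 24 h (log2 change 3.39 ± 0.08, adjusted p = 3.85e-09).

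Serpinh1 (chr7:106493885-106501740, minus strand), the collagen-specific chaperone, was the most abundant member in every library. Parental cells held 85.1 and 86.2 FPKM untreated, 128 and 132 FPKM after 8 h and, by 24 h, 175 and 172 FPKM. The 3 groups did not overlap, and at 24 h its mean was 2.02 times the untreated one (log2 change 1.01 ± 0.04, adjusted p = 1.24e-06). Control cells held 90.3 and 77.1 FPKM untreated, 104 and 110 FPKM at 8 h, with 173 and 174 FPKM at 24 h. The 24 h change in control was 1.05 ± 0.07 (adjusted p = 1.35e-06), close to that in parental cells, although the 2 were not tested against one another.

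Lox (chr18:52675723-52689521, minus strand) encodes the lysyl oxidase for which the family is named. Parental cells held 1.93 and 1.79 FPKM untreated, 7.27 and 6.97 FPKM at 8 h, then 17.0 and 15.7 FPKM at 24 h. Every treated library lay above every untreated one, and the mean at 24 h was 8.78 times the untreated mean, the largest ratio of the 9 tested members in parental cells (log2 change 2.60 ± 0.06, adjusted p = 3.9e-07). In control cells Lox was close to the floor of the table when untreated, at 0.126 and 0.165 FPKM, and held 2.94 and 3.09 FPKM after 8 h and, by 24 h, 8.13 and 7.10 FPKM. None of the 4 untreated shRNA libraries reached 1 FPKM of Lox, so it entered the test through its treated libraries only. Its control log2 changes, 1.81 ± 0.18 at 8 h and 2.91 ± 0.18 at 24 h, are given as a description.

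Loxl1 (chr9:58135530-58161019, minus strand), the lysyl oxidase-like enzyme best known for elastic fibre assembly, was lower. It measured 2.60 and 2.43 FPKM in untreated parental cells, 3.13 and 3.21 FPKM at 8 h, with 5.50 and 5.33 FPKM at 24 h. The groups did not overlap, and it rose by 0.25 ± 0.06 at 8 h (adjusted p = 0.0117) and by 0.87 ± 0.06 at 24 h (adjusted p = 1.64e-05). The 8 h call was lost without the second untreated library. Control cells held 0.171 and 0.115 FPKM untreated, 0.829 and 1.06 FPKM at 8 h, then 2.22 and 2.21 FPKM at 24 h. As with Lox, no untreated shRNA library reached 1 FPKM, and the 8 h call (log2 change 0.76 ± 0.27) was lost without any 1 of the 4 control libraries at 0 and 8 h.

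Loxl2 (chr14:70008978-70095640, plus strand), which crosslinks basement membrane collagen, responded late. Parental cells held 12.2 and 12.3 FPKM untreated, 13.4 and 12.3 FPKM after 8 h and, by 24 h, 41.6 and 39.4 FPKM. The untreated and 8 h libraries overlapped (log2 change 0.06, interval -0.07 to 0.19, adjusted p = 0.359), and both 24 h libraries lay above them. Loxl2 rose by 1.65 ± 0.05 at 24 h (adjusted p = 9.86e-07), a 3.31-fold difference of means, and nearly all of it came after 8 h, with 1.58 ± 0.05 between 8 and 24 h (adjusted p = 3.89e-06). Control cells held 11.4 and 9.41 FPKM untreated, 14.5 and 15.1 FPKM at 8 h, with 46.7 and 49.6 FPKM at 24 h. At 8 h its change in control was 0.48 ± 0.15 (adjusted p = 0.0208), a call lost without replicate 2 of untreated control or without either control library at 8 h, and at 24 h it was 2.11 ± 0.15 (adjusted p = 2.42e-06). An annotated antisense gene overlaps Loxl2. The RNA-seq was strand-specific, but whether the FPKM calculation used the strand is not given in the sources used here, so the value of Loxl2 is uncertain to that extent.

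Loxl3 (chr6:82984167-83002556, plus strand), a lysyl oxidase-like enzyme that also overlaps a gene on the other strand, stayed below 1 FPKM in all 6 parental libraries and was not tested there. It measured 0.492 and 0.361 FPKM untreated, 0.224 and 0.452 FPKM at 8 h, then 0.601 and 0.757 FPKM at 24 h. The untreated and 8 h libraries overlapped, and those at 24 h were the highest. In control cells it held 0.110 and 0.114 FPKM untreated, 0.245 and 0.273 FPKM after 8 h and, by 24 h, 0.619 and 0.641 FPKM. Only the 2 KD libraries at 24 h reached 1 FPKM, so its calls in the shRNA table are a description.

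All 10 members were tested in the shRNA table, but Lox, Loxl1 and Loxl3 entered only through treated libraries and are not counted here. The other 7 (P4ha1, P4ha2, P4ha3, Plod1, Plod2, Loxl2 and Serpinh1) reached 1 FPKM in at least 2 untreated libraries. P4ha3 did so in 3 of the 4, both of KD and 1 of control, the other control library holding 0.766 FPKM. In control cells all 7 rose by 8 h, where 19.4% of 11450 tested genes rose, and all 7 by 24 h, where 25.5% did. In KD cells all 7 rose by 8 h (23.0% of genes) and by 24 h (28.6%). The median change of the 7 members in control was 0.84 at 8 h and 1.24 at 24 h, against -0.14 and -0.13 over all tested genes, a general shift that was -0.02 and 0.00 after quantile normalization. In KD it was 0.87 and 1.26, against -0.13 and -0.10. Of the called genes in control at 24 h, 36.1% were higher as deposited and 50.3% after median-ratio scaling. The 7 calls at 24 h held under this scaling and quantile normalization, and in KD also without either of its 24 h libraries in turn.

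**Figure D2:**
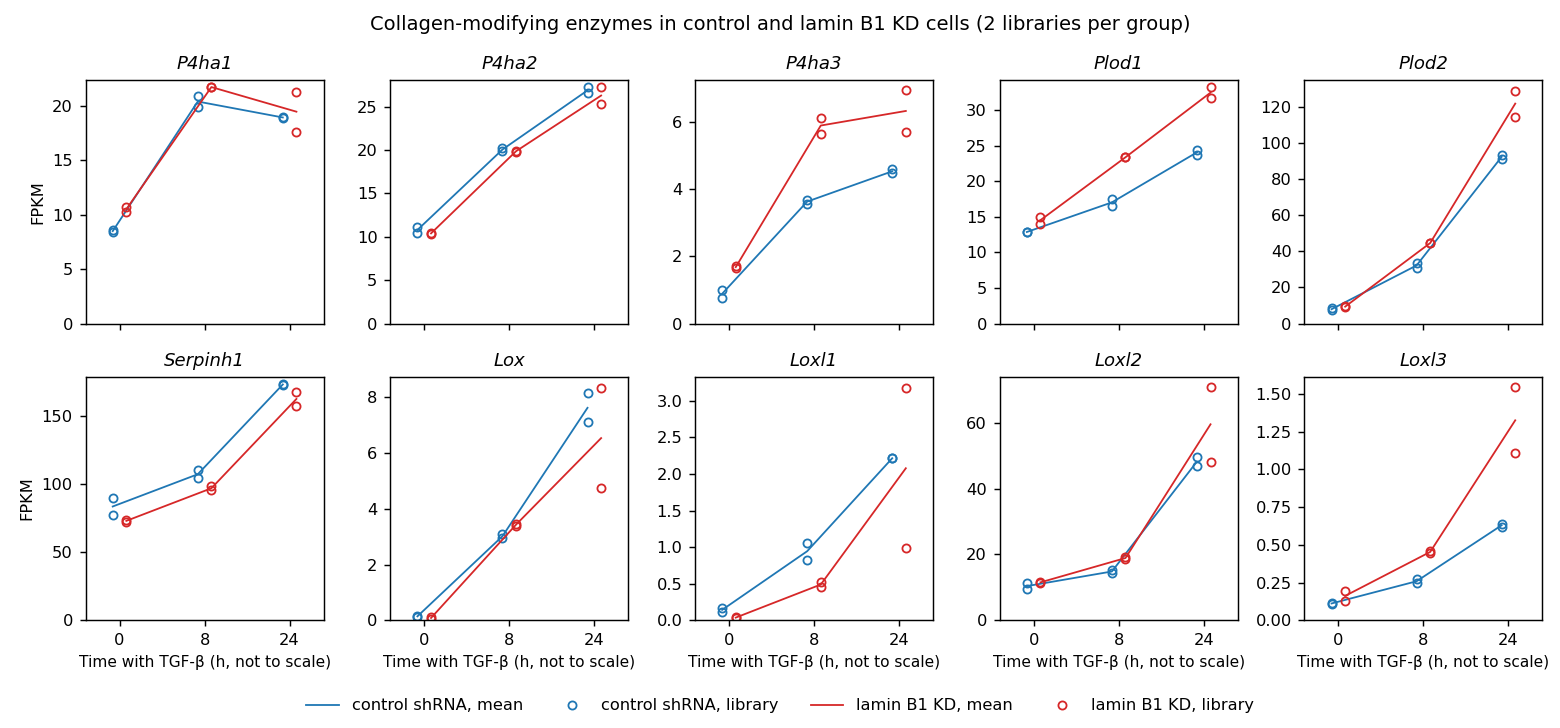
FPKM of each of the 10 genes (1 panel each, linear axis from 0) in the 12 shRNA libraries against time with TGF-β (0, 8 and 24 h, not to scale), control in blue and lamin B1 KD in red, with circles for libraries and lines through the means of 2. Plod1 and Plod2 lay higher in KD than in control at 8 and 24 h, and the KD libraries at 24 h lay apart for Lox, Loxl1 and Loxl2.

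**Figure D3:**
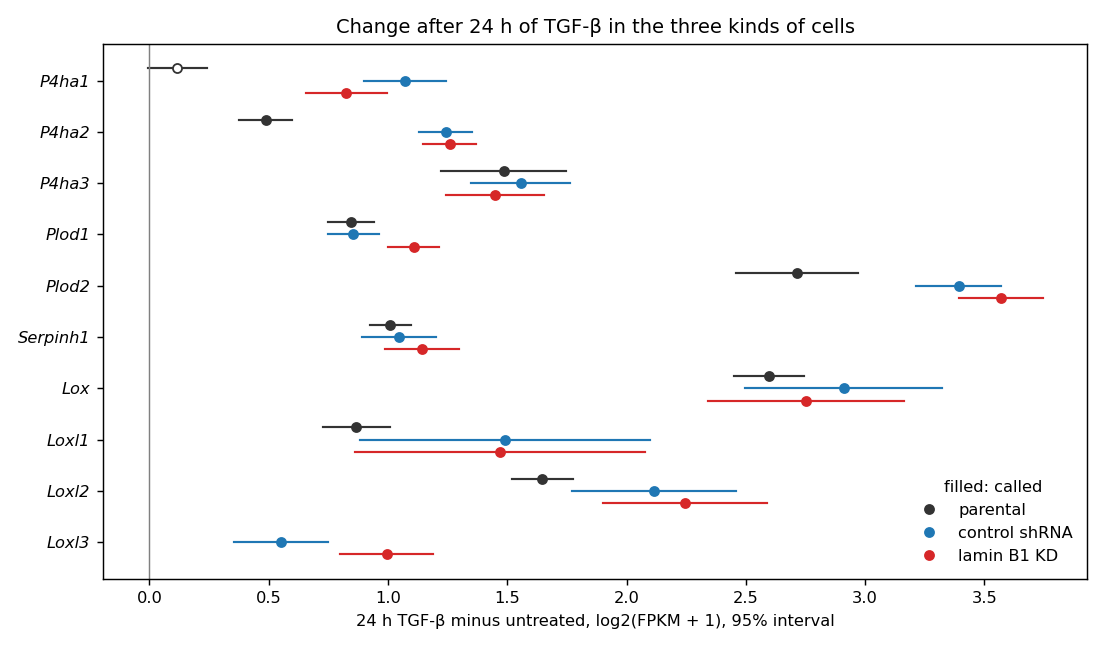
Change of each member at 24 h of TGF-β against untreated on the log2(FPKM + 1) scale in parental (black), control (blue) and lamin B1 KD (red) cells, with 95% intervals from limma and filled points for calls. Plod2 and Lox changed most in each. P4ha1 of parental cells is the 1 open point, and Loxl3 is absent for parental cells, where it was not tested. Lox, Loxl1 and Loxl3 entered the shRNA test only through treated libraries, so their control and KD points are a description.

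The second question was whether reduced lamin B1 changed the level of these enzymes. Untreated, 3 members were higher in KD than in control (P4ha1, P4ha3 and Plod1), where 10.6% of tested genes were higher and 9.09% lower. Of these, P4ha3 lay below 1 FPKM in 1 of the 2 untreated control libraries. At 8 h the 3 were P4ha3, Plod1 and Plod2, where 19.3% of genes were higher and 16.5% lower. At 24 h they were again P4ha3, Plod1 and Plod2, where 16.8% were higher and 11.5% lower. Loxl3 also passed at 24 h but is not counted, since it entered the test only through the 2 KD libraries of that time. No member was called lower at any time. The median difference of the 7 members that reached 1 FPKM untreated was 0.16, 0.33 and 0.27 at 0, 8 and 24 h, against -0.01, 0.01 and 0.02 over all tested genes.

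P4ha3 and Plod1 were higher at all 3 times, and Plod2 at both treated times. P4ha3 measured 1.72 and 1.64 FPKM in untreated KD cells, 6.14 and 5.66 FPKM at 8 h, with 6.95 and 5.71 FPKM at 24 h, each above its control pair. Its difference was 0.51 ± 0.09 untreated, 0.57 ± 0.09 at 8 h and 0.40 ± 0.09 at 24 h (adjusted p = 0.00663, 0.00194 and 0.0129), and the last was lost when either control library at 24 h was left out. Plod1 measured 15.0 and 14.0 FPKM in untreated KD cells, 23.4 FPKM in both libraries at 8 h, then 31.7 and 33.2 FPKM at 24 h. No library overlapped control. Its difference was 0.44 ± 0.05 at 8 h, with means of 23.4 against 17.0 FPKM (adjusted p = 0.00032), and 0.42 ± 0.05 at 24 h (adjusted p = 0.000717). Untreated, it was 0.16 ± 0.05 (adjusted p = 0.0426).

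Plod2 measured 9.50 and 9.23 FPKM in untreated KD cells, 45.0 and 44.4 FPKM at 8 h, then 129 and 115 FPKM at 24 h. Its libraries lay above control at each time. The difference was 0.22 untreated (interval 0.04 to 0.39, adjusted p = 0.0829), 0.46 ± 0.08 at 8 h (adjusted p = 0.00259) and 0.39 ± 0.08 at 24 h (adjusted p = 0.00727). The 24 h call was lost without replicate 1 of control at 24 h. In a fit on the 4 libraries at 24 h alone, Plod1 was the 1 member still called. The untreated calls were the least stable: without replicate 1 of untreated KD no member was called, and leaving out any 1 of 8 other libraries left P4ha3 alone.

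The other members differed less. P4ha1 measured 10.3 and 10.7 FPKM in untreated KD cells, above both control libraries (difference 0.28 ± 0.07, adjusted p = 0.0332), and 21.7 FPKM in both libraries at 8 h and 21.3 and 17.6 FPKM at 24 h, where the difference was 0.03 (interval -0.14 to 0.20). Without replicate 2 of KD at 24 h it was 0.16 and P4ha1 was called higher (adjusted p = 0.0383), and without replicate 1 it was -0.10 (adjusted p = 0.135). P4ha2 held 10.4 FPKM in both untreated KD libraries, 19.8 and 19.9 FPKM at 8 h, then 27.3 and 25.3 FPKM at 24 h, overlapping control at each time. It differed by -0.05, -0.01 and -0.03 at the 3 times, with intervals reaching from -0.16 to 0.10 at most. Serpinh1 measured 73.8 and 72.5 FPKM in untreated KD cells, 95.7 and 98.4 FPKM after 8 h and, by 24 h, 158 and 168 FPKM. All of its KD libraries lay below the control pair of the same time, but the differences of -0.19, -0.14 and -0.09 did not pass the threshold (adjusted p = 0.088, 0.134 and 0.345). Serpinh1 was called lower in untreated KD without replicate 2 of untreated control, and lower at 8 h without either untreated control library.

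The lysyl oxidases at 24 h rested on which KD library was read. Lox held 4.74 and 8.32 FPKM, Loxl1 0.983 and 3.17 FPKM and Loxl2 48.1 and 70.9 FPKM in replicates 1 and 2, and in each gene the control pair overlapped that span. With both libraries the differences from control were -0.23, -0.16 and 0.27 (adjusted p = 0.361, 0.69 and 0.204). Those of Lox and Loxl1 are a description, since both genes entered the test only through treated libraries. Without replicate 1 the differences of the 3 genes were 0.12, 0.38 and 0.55, and without replicate 2 they were -0.58, -0.70 and 0.00. In each of these fits the lone KD library was assumed to vary like the other groups. At 8 h, where the replicates lay close, Lox held 3.47 and 3.39 FPKM in KD against 2.94 and 3.09 FPKM in control (difference 0.14, interval -0.27 to 0.55), and Loxl2 18.6 and 19.2 FPKM against 14.5 and 15.1 FPKM (difference 0.33, interval -0.01 to 0.68). Loxl1 then held 0.453 and 0.527 FPKM in KD, below both control libraries (difference -0.38, interval -0.99 to 0.23). With either KD library of 24 h left out of the fit, Loxl2 was called higher at 8 h. Loxl3 is left out here, since only those 2 KD libraries reached 1 FPKM of it. Loxl3 held 1.11 and 1.54 FPKM in KD at 24 h, above 0.619 and 0.641 FPKM in control. Its difference of 0.51 ± 0.09 comes from the only 2 libraries in which it reached 1 FPKM.

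Whether the response to TGF-β itself differed between KD and control was tested as the difference of the 2 responses. No member passed by limma at either time, where 4.06% of genes were called at 8 h and 4.72% at 24 h. At an unadjusted p under 0.05 there was 1 member at 8 h, against 21.2% of genes, and 3 at 24 h, against 23.7%. The 3 include Loxl3, which entered the test only through the 2 KD libraries at 24 h, so its place among them is a description. Plod1 came nearest, with a response larger in KD by 0.27 ± 0.07 at 8 h (adjusted p = 0.0595, 0.0304 to 0.215 over the alternatives) and by 0.25 ± 0.07 at 24 h (adjusted p = 0.0695, 0.0202 to 0.237). Plod2 had a difference of 0.24 at 8 h (interval -0.01 to 0.49) and 0.18 at 24 h (interval -0.07 to 0.43). P4ha1, whose untreated level was higher in KD, had -0.25 at 24 h (adjusted p = 0.203). Without replicate 1 of KD at 24 h the differences of the 24 h responses were 0.29 in Plod1, 0.52 in Loxl1 and 0.41 in Loxl2. In Lox it was then 0.19 and in P4ha1 -0.38. Without replicate 2 they were 0.22 in Plod1, -0.56 in Loxl1, -0.14 in Loxl2, -0.51 in Lox and -0.12 in P4ha1. Loxl3 is left out here, since only these 2 KD libraries reached 1 FPKM of it. At 8 h Plod1 was called larger in KD without either of these libraries.

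**Figure D4:**
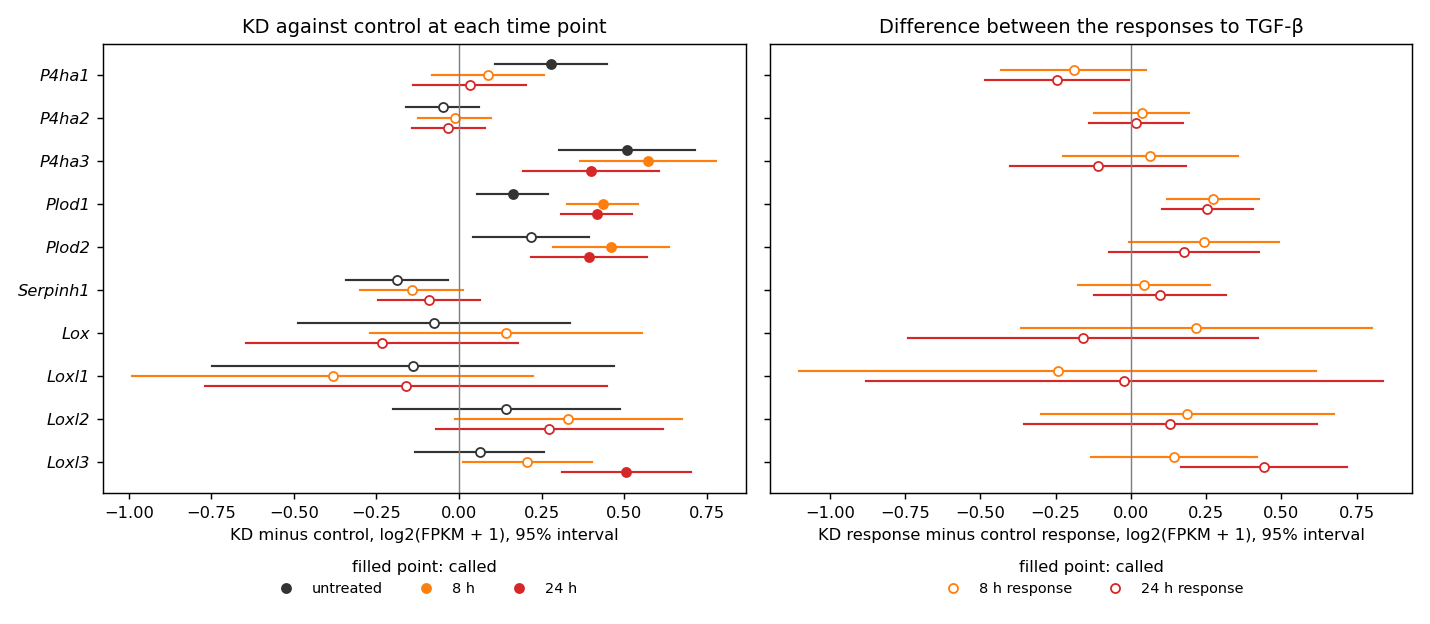
Left, KD minus control for each of the 10 genes at 0, 8 and 24 h on the log2(FPKM + 1) scale; right, the difference between the KD and control responses at 8 and 24 h. Bars are 95% intervals from limma and filled points are calls. Plod1 lay at 0.44 at 8 h and 0.42 at 24 h with short bars, Loxl1 had the widest bars, and no point on the right is filled. Lox, Loxl1 and Loxl3 entered the test only through treated libraries, so their points are a description.

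The rest of the collagen pathway was described by lists chosen with earlier results known. Of 11 tested enzymes and chaperones that also act on collagen, 8 rose and none fell in parental cells at 24 h, where 33.4% of all tested genes rose and 37.1% fell. Fkbp14, a prolyl isomerase of the endoplasmic reticulum, rose by 1.44 (adjusted p = 1.25e-06), Loxl4, another lysyl oxidase, by 0.77, and P3h1, a prolyl 3-hydroxylase, by 0.73. All 6 tested fibrillar chains rose, among them Col5a3 (5.82), Col5a1 (2.52) and Col1a1 (1.53), and 4 of 5 basement membrane chains rose, led by Col7a1 (3.69), the anchoring fibril chain. All 9 tested elastic fibre genes rose, among them Ltbp2 (2.20) and Fbln2 (2.06). Of 3 procollagen processing genes, Bmp1 (2.23), the C-proteinase, and its enhancer Pcolce2 (2.21) rose, and Pcolce (-2.20), a second enhancer, fell. Of 12 folding genes of the endoplasmic reticulum 8 rose, by modest amounts such as 0.44 for Pdia3, and 1 fell. Of 12 hypoxia response genes 4 rose and 8 fell, with Egln3 at -3.03, Ldha at -1.53 and Vegfa at 1.68. In control cells 9 of these 12 rose and 1 fell at 8 h, where 19.4% of all tested genes rose and 44.9% fell. At 24 h in control 5 rose and 5 fell, where 25.5% of all tested genes rose and 45.1% fell. Again in parental cells at 24 h, 6 of 7 tested early TGF-β targets rose and 1 fell, with Ctgf at 2.76 and Id1 at -2.54. Of 6 tested epithelial markers 2 rose and 3 fell, with Krt19 at -3.98, Cdh1 at -1.50 and Cldn4 at 3.07. Of 5 tested fibroblast markers 3 rose and 1 fell (S100a4, -1.28), of 2 myoepithelial markers 1 rose, and the 1 tested immune marker rose.

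In KD against control, the 11 other collagen-modifying genes gave 3 higher untreated, 9 at 8 h and 9 at 24 h, and none lower. Of all tested genes, 10.6%, 19.3% and 16.8% were higher at these times and 9.09%, 16.5% and 11.5% lower. At 8 h Fkbp14 was higher in KD by 0.84 (adjusted p = 0.000825), Loxl4 by 0.48 (adjusted p = 0.000465) and P3h1 by 0.47 (adjusted p = 0.000825). The response of Loxl4 at 8 h was larger in KD by 0.49 (adjusted p = 0.0212). Of the 12 folding genes 2 were higher and 2 lower in untreated KD, 8 higher at 8 h and 4 higher at 24 h. The 5 tested fibrillar chains gave no higher call and 1 lower at 8 h, and 1 of each at 24 h. Of 7 elastic fibre genes 3 were lower at 8 h and none was called at 24 h.

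Lamin B1 ChIP-seq here reads lamin B1 in an accessible chromatin fraction, and ATAC-seq reads open chromatin. Peaks were called by MACS on mm9, which gives each a score from 50 upward. A gene was counted for lamin B1 when a peak touched it or the 2500 bp upstream, and for ATAC when a peak lay within 500 bp of its start. The lists differed in length, with 4645, 10484 and 7083 lamin B1 peaks and 9782, 10340 and 33811 ATAC peaks at 0, 8 and 24 h, so counts between times move with how much was called.

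Lamin B1 peaks were found at 3, 4 and 4 of the 10 genes at 0, 8 and 24 h, where 19.9%, 38.8% and 29.4% of 20994 placed genes had one. Among placed genes at 1 FPKM or more the shares were 34.1%, 57.1% and 44.6%. P4ha1, P4ha2 and Plod2 had a peak over a transcription start at all 3 times. The P4ha1 peaks scored 68.65, 144.05 and 74.16, with centres 282, 358 and 233 bp inside the gene. The P4ha2 peaks scored 58.22, 110.84 and 63.95 and lay over the inner start whose sequence is printed, with centres 994, 1116 and 944 bp from the outermost start. The Plod2 peaks scored 58.62, 115.09 and 90.65, with centres 553, 111 and 83 bp inside the gene. For all 3 genes the score was highest at 8 h, when the list was longest. The median lamin B1 score was 69.8, 79.42 and 83.25 at 0, 8 and 24 h. Ranked from the lowest score of each list, the P4ha1 peaks stood at 48.3%, 85.7% and 40.4%. Those of P4ha2 stood at 26.0%, 73.6% and 28.0%, and those of Plod2 at 27.0%, 75.7% and 56.6%. The expression of these 3 genes at 24 h ran from 1.09 times the untreated mean in P4ha1 to 7.12 times in Plod2. Its relation to the lamin B1 peaks was not tested. Lox had a lamin B1 peak at 8 h only (score 67.14), over an inner start, and Serpinh1 at 24 h only (score 50.64, in the lowest 1.2% of its list), 4187 bp into the gene. Plod1 had lamin B1 peaks 4613 bp upstream at 8 h and 4631 bp upstream at 24 h, outside the counted span. P4ha3, Loxl1 and Loxl2 had none, and Loxl3 only beyond its 3′ end.

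ATAC peaks lay near the start of 1 gene untreated (P4ha1), 2 at 8 h (P4ha1 and Loxl3) and 6 at 24 h (P4ha1, P4ha2, Plod1, Plod2, Loxl3 and Serpinh1). All placed genes gave 30.6%, 25.0% and 47.1%, and those at 1 FPKM or more 57.7%, 47.4% and 85.5%. The P4ha1 peak scored 77.79, 59.59 and 507.48, the last above 94.4% of its list. At 24 h the start peaks scored 269.73 at Loxl3, 166.76 at P4ha2, 135.54 at Plod1, 113.9 at Plod2 and 109.11 at Serpinh1. Within the 24 h list these ranked at 72.8%, 52.9%, 44.1%, 37.1% and 35.2% from the lowest score. The median ATAC score was 93.06, 73.85 and 155.23 at 0, 8 and 24 h, so scores between times also move with the list. Counted over the gene and the 2500 bp upstream, 1, 3 and 8 genes had an ATAC peak at 0, 8 and 24 h, where 37.0%, 32.9% and 60.0% of placed genes did. Loxl2 had 1 intronic peak at 8 h and 4 at 24 h, the nearest 1525 bp into the gene with a score of 144.08, and none over its start. P4ha3 had intronic peaks 2995 and 16831 bp into the gene at 24 h. Lox had an ATAC peak about 6 kb upstream at every time, with centres 5681, 5779 and 6385 bp from its start and scores of 59.24, 68.35 and 348.93. Plod2 had one 4379 bp upstream at 8 h (score 61.02) and 4253 bp upstream at 24 h (score 267.48). Loxl1 had none in the gene or its upstream span, and the nearest at 24 h, scored 393.46, lay beyond its 3′ end. With 1 library a time these are descriptions of single libraries.

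**Figure D5:**
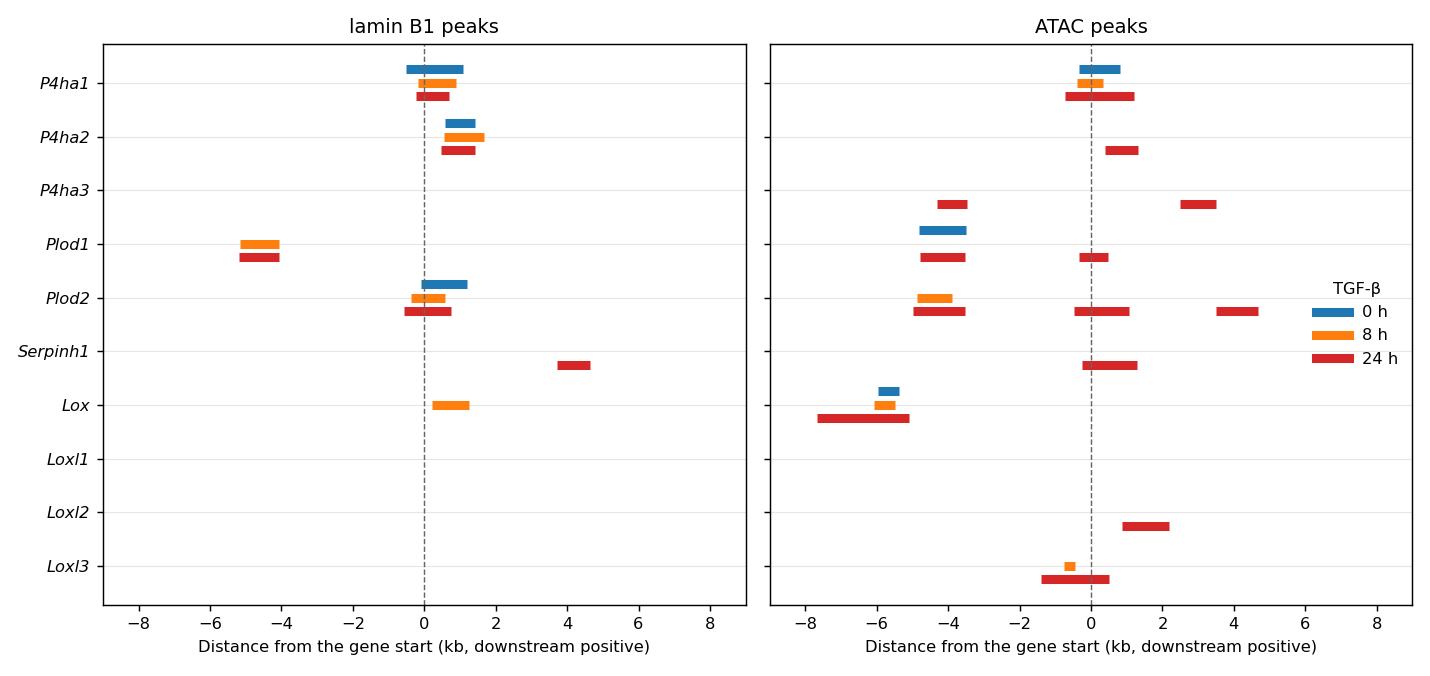
Lamin B1 peaks (left) and ATAC peaks (right) within 9 kb of the outermost start of each of the 10 genes at 0, 8 and 24 h (blue, orange, red), drawn to scale as bars by distance from that start (kb, positive in the direction of transcription). P4ha1, P4ha2 and Plod2 carry lamin B1 bars near the start at all 3 times, and ATAC bars near a start are most frequent at 24 h.

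Over the 12 shRNA libraries genes whose level ran most like each member were named by Pearson correlation of log2(FPKM + 1), as a description over libraries that share treatment and line. Plod2 ran most like Zdhhc16 (0.998) and Itgb3 (0.997), and Plod1 like Slc10a7 (0.993) and the prolyl 3-hydroxylase gene P3h1 (0.993). P4ha1 ran like Lrrfip1 (0.996) and Il17ra (0.993), P4ha2 like Icmt (0.997) and Ncam1 (0.997), and P4ha3 like Fam114a1 (0.994) and B4galt1 (0.993). Lox ran like Actn1 (0.993), Loxl2 like Capzb (0.994) and the membrane collagenase gene Mmp14 (0.993), and Serpinh1 like Gadd45b (0.994) and Plxnd1 (0.992). Over the 6 parental libraries, which were not used to pick the genes, the correlations ran from 0.264 (Loxl3 with Pdia4) to 0.995 (Plod2 with Zdhhc16). Loxl1 and Loxl3, the lowest members, had lower values, with Etv6 (0.975) and Myh9 (0.972) for the former and Parp9 (0.973) and Pdia4 (0.972) for the latter.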

How the data were processed

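Expression came from RNA-seq of 18 libraries, in 9 groups of 2, and peaks from 3 lamin B1 ChIP-seq and 3 ATAC-seq libraries. The authors' deposited FPKM values were made, per the submitters' processing notes, with Bowtie, TopHat and Cufflinks on mm9. Versions, annotation and the strand setting of the FPKM calculation are not given in the sources used here. Values were not pooled, but a few small nucleolar RNAs hold much of the sum (10 genes held 11.4% to 40.4% of it), which can shift the level of all other genes. The score of each deposited peak was given by MACS for 1 library, each ChIP library being a mixture of parallel immunoprecipitations. Columns of the FPKM tables carry no names, and were assigned by the order that the deposited table's title spells out.

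Genes with at least 1 FPKM in 2 or more libraries were tested with limma 3.58.1 (R 4.3.3) on log2(FPKM + 1), with a trended variance, the 6 parental or 12 shRNA libraries fitted together, and Benjamini-Hochberg adjustment over all tested genes. A gene was called at an adjusted p under 0.05. The test was checked on simulated data. Peaks were placed on 20994 genes of an mm9 annotation by at least 1 bp of overlap, with Python 3.11.15, numpy 2.4.6, pandas 2.3.3 and matplotlib 3.10.9. Depth relative to the first library was read from the steps between low FPKM values, and counting error cannot be given without counts. Replicate numbers did not pair samples, so no block was used. The members and lists were chosen with earlier results of these data known. Genes named beside the members were, from each list, up to 3 with the largest change at 24 h in parental cells among those at 5 FPKM or more, and the 2 genes most correlated with each member. Of the genes this rule gives, 2 are not reported here. The alternatives tried were no filter, a constant of 0.1 in place of 1, quantile and median-ratio scaling, a fit on the compared groups alone, a 2-fold minimum, a replicate block and leaving out each library. The median-ratio scaling and the member values without each KD library at 24 h were chosen after seeing the data. Hi-C was not used here.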

Additional observations from a re-analysis of the deposited data

How the results depend on the processing

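Counts of calls in this section cover every tested member, so in shRNA cells they include Lox, Loxl1 and Loxl3. Counted so, 9 members rose by 8 h and 10 by 24 h, both in control and in KD. Of all tested genes, 19.4% and 25.5% rose in control and 23.0% and 28.6% in KD. Lox, Loxl1 and Loxl3 entered the test only through treated libraries, so their part in these counts is a description. In KD against control at 24 h, 4 members were higher, Loxl3 among them, where 16.8% of all tested genes were higher. Counts in the TGF-β comparisons stayed within 1.5 times of those of the main fit under every alternative except a 2-fold minimum. That minimum left 2 members higher at 8 h and 5 at 24 h in parental cells, and 3 higher and 0 lower from 8 to 24 h. It left 4 at 8 h in control (P4ha1, P4ha3, Plod2 and Lox) and 3 at 8 h in KD (P4ha3, Plod2 and Lox). For KD against control, a 2-fold minimum left 0 members at each time. A fit on the compared groups alone gave 1 higher untreated, 5 higher and 2 lower at 8 h, and 1 higher at 24 h. Leaving out one library at a time gave, for KD against control, 0 to 4 higher and 0 to 1 lower untreated, 3 to 5 higher and 0 to 1 lower at 8 h, and 2 to 6 higher and 0 to 2 lower at 24 h. For the difference of responses it gave 0 to 1 higher at 8 h, and 0 to 4 higher and 0 to 2 lower at 24 h. The 0 higher untreated was without replicate 1 of untreated KD.

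Directions turned in differences of KD against control that had not passed the threshold. P4ha2 in KD against control at 8 h became 0.0039 under median-ratio scaling and ran from -0.028 to 0.0011 when one library was left out, and at 24 h it ran from -0.084 to 0.020. P4ha1 at 24 h became -0.0016 under quantile normalization and ran from -0.098 to 0.16 with one library left out. Lox ran from -0.58 to 0.12, Loxl1 from -0.70 to 0.38 and Loxl2 from -0.0015 to 0.55, the ends being the fits without one or the other KD library at 24 h. The cause was not tested. The share of higher calls among all called genes moved by over 10 points in some comparisons: at 8 h in control from 30.2% to 46.0% after quantile normalization, at 8 h in KD from 33.9% to 46.0%, at 24 h in KD from 39.8% to 50.1%, and, after median-ratio scaling, untreated KD against control from 53.8% to 68.9% and the 24 h difference of responses from 58.0% to 35.6%.

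With the replicate block, 2 members (P4ha1 and P4ha3) were called higher in untreated KD, Plod1 having an adjusted p of 0.0523, and 3 and 4 members stayed higher at 8 and 24 h. Correlations between the deviations of same-numbered replicates ran from -0.135 to 0.368, so the numbers were not taken as a pairing. The block moved the count of genes with a different response from 465 to 284 at 8 h and from 540 to 377 at 24 h.

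Keeping the peaks above the median score left lamin B1 at 0 members untreated and 1 at 24 h, and promoter ATAC peaks at 0, 0 and 3 members at 0, 8 and 24 h. Lists cut to equal length gave 2 members for lamin B1 and 2 for ATAC at 24 h, and asking for 50% of the peak to lie inside gave 1 for ATAC at 8 h. With no read counts the depth behind single values is unknown.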
